A study of Mus musculus with 6 samples.

Results

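The p53 pathway was described here through 10 genes: Trp53, which encodes p53, and 9 of its transcriptional targets, Cdkn1a, Mdm2, Ccng1, Trp53inp1, Phlda3, Sesn2, Aen, Zmat3 and Ei24. The members were found by name in the probe table, in which Aen stands under its older symbol Isg20l1. All 10 were present among the table's 28888 genes, with 24 of its 45281 probes, and all 10 had at least 1 probe detected on every array. BCL2 family genes that p53 also induces were kept out of the 9 targets, so that it could be asked whether the remaining targets lay together on one side.

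The RNA came from DN3 thymocytes, the CD4 and CD8 negative, CD25 positive, CD44 negative immature T cells of the thymus, sorted free of B220, NK1.1, gamma-delta TCR, CD11b and CD11c positive cells. Samples of miR-185 Tg mice, which carry a transgene of the microRNA miR-185 (3 samples, Tg 1 to Tg 3), were set against samples of wild-type mice (3 samples, WT 1 to WT 3), and the labels give C57BL/6 as the strain of both. Each sample was hybridised to 1 Illumina mouse bead array. The promoter of the transgene, the number of founder lines, the age of the mice and whether animals were pooled are not stated by the sources used here. Each p-value therefore reflects sample-to-sample spread, which may be technical.

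p53 is a transcription factor that is held at a low level by Mdm2, a ubiquitin ligase which is itself a p53 target, and that is stabilised after DNA damage. Its targets stop the cell cycle, start cell death, repair DNA or adjust metabolism. In mouse thymus, DNA breaks are made at the DN3 stage while the T cell receptor beta chain gene is rearranged, and p53 is known to hold back cells that lack a working receptor chain.

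The binding sequence is shown for the members whose promoters hold it, because it is the sequence through which p53 acts. A full site was taken as a pair of p53 half-site consensus sequences with no spacer, 20 bases in all, with the C and G of each core kept and at most 1 other mismatch; the consensus is palindromic, so 1 search covers both strands. RefSeq windows of 300 bases around gene starts (GRCm38.p6) numbered 10 for the 8 members that had any. A full site was held by 2 of these 10 windows, against 22 of 32841 windows overall (0.0670%). The capitals mark the full site. The Cdkn1a stretch lies at chr17:29090888-29090987 on the plus strand, at the upstream one of its 2 annotated starts, and the Ccng1 stretch at chr11:40755422-40755521 on the minus strand.
Cdkn1a: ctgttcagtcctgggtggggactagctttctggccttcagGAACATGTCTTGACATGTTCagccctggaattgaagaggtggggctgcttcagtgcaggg
Ccng1: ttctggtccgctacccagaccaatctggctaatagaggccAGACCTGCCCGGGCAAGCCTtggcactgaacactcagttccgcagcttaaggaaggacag

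Of the 12426 genes tested, 5 held a full site in such a window. Beside Cdkn1a and Ccng1 these were Gtse1, which lowers p53 in G2 cells, Rps27l, a ribosomal protein gene that p53 induces, and Mthfd1, a folate enzyme gene. Mthfd1 alone passed the test, 1 of 5 beside 4.23% of all genes, and fell by 0.85 ± 0.17 on the log2 scale (SE; limma, adjusted p = 0.036). Its call was lost in the fit without Tg 1, Tg 3, WT 1, WT 2 or WT 3, with log2 fold changes of -0.90, -0.76, -0.79, -0.89 and -0.87. For Gtse1 the log2 fold change was -0.20 ± 0.27 and for Rps27l 0.11 ± 0.15 (SE), and neither passed. A match describes the letters of a window and not whether p53 binds there.

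For the agent itself, the mouse Mir185 hairpin (RefSeq, chr16:18327401-18327465, minus strand) is shown with the miR-185-3p arm in capitals. The other arm was not among the sequences used here and is left unmarked, so the capitals do not show which arm acts. The labels do not say which stretch the transgene carries, and the arrays do not measure the mature microRNA.
Mir185: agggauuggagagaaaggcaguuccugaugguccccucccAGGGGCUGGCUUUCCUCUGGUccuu

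Between 17879 and 18913 of the 45281 probes were detected per array, with a median of 41 to 42 beads per probe. The arrays differed in ways that touch every result below. Tg 2 stood apart, with 44.8% of genes over 0.5 log2 units from the WT mean, against 27.3% in Tg 1 and 33.2% in Tg 3, while WT 2 and WT 3 lay closest to each other (r = 0.997 across genes, which are not independent replicates). Ddx3y, on the Y chromosome, was at 6.06 log2 units in Tg 2, while the remaining 5 arrays ran between 9.07 and 10.50.

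The sorted cell type was checked against its markers. All 8 DN3 markers, among them Ptcra, Rag1 and Notch1, were detected on 6 of 6 arrays. The log2 of their summed intensity was 14.41 to 14.75 in Tg samples and 13.83 to 14.06 in WT samples. Sums of other markers are given in the same way, and in each the brightest genes weigh most. Il2ra, the CD25 gene, had 10.87 to 11.10 in Tg samples and 8.97 to 9.76 in WT samples. Dtx1 had 10.02 to 11.57 in Tg samples and 7.99 to 8.58 in WT samples. Both passed (limma, adjusted p = 0.016 for each), where 4.23% of all genes did, and the other DN3 markers did not. Of 3 later thymocyte markers, Cd8a was detected on 0 arrays and Cd4 on 2, while Cd8b1 was detected on all 6. Of 3 early progenitor markers, Flt3 was detected on 0 arrays. Cd44, the gene of the marker absent by the sort, was detected on all 6 at 5.47 to 6.71, and Kit on all 6 at 8.87 to 9.93. The early progenitor markers summed to 9.07 to 10.06 in Tg samples and 9.58 to 10.03 in WT samples. All 5 natural killer and thymic epithelial markers were detected on 0 arrays, and no B cell marker was detected on all 6. The 2 gamma-delta T cell markers were both detected and summed to 9.57 to 9.82 in Tg samples and 8.66 to 8.77 in WT samples, but they lay on opposite sides. Blk had 9.45 to 9.64 in Tg samples and 7.66 to 7.84 in WT samples, while Sox13 had 5.90 to 7.26 in Tg samples and 7.64 to 7.69 in WT samples. Blk passed and Sox13 did not (limma, adjusted p = 0.0064 and 0.10). The 4 macrophage and dendritic markers summed to 7.88 to 8.81 in Tg samples and 6.88 to 7.74 in WT samples, with Itgam and Itgax detected on 0 arrays. The 4 neutrophil markers summed to 6.24 to 6.29 in Tg samples and 6.74 to 8.55 in WT samples, and the 3 red blood cell markers to 9.97 to 11.06 and 8.72 to 13.89. The part of these markers in the results below was not tested. In such bulk samples, fewer cells of a type and less RNA per cell cannot be told apart.

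Neither Trp53 nor any of its 9 targets passed the test in miR-185 Tg against WT cells. The count was 0 of 10, where 4.23% of genes passed (limma, Benjamini-Hochberg adjusted p under 0.05), and 0 had an unadjusted p under 0.05, where 20.0% of genes did. Only Ei24 had groups that did not overlap, against 28.2% of all genes. Of the 9 targets, 7 had a positive log2 fold change and 2 a negative one, with a median of 0.30, beside a median of -0.0015 over all genes, of which 49.9% were positive. The fold changes of the targets ran from -0.37 to 0.57 on the log2 scale, which is 0.773-fold to 1.49-fold.

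**Figure D1:**
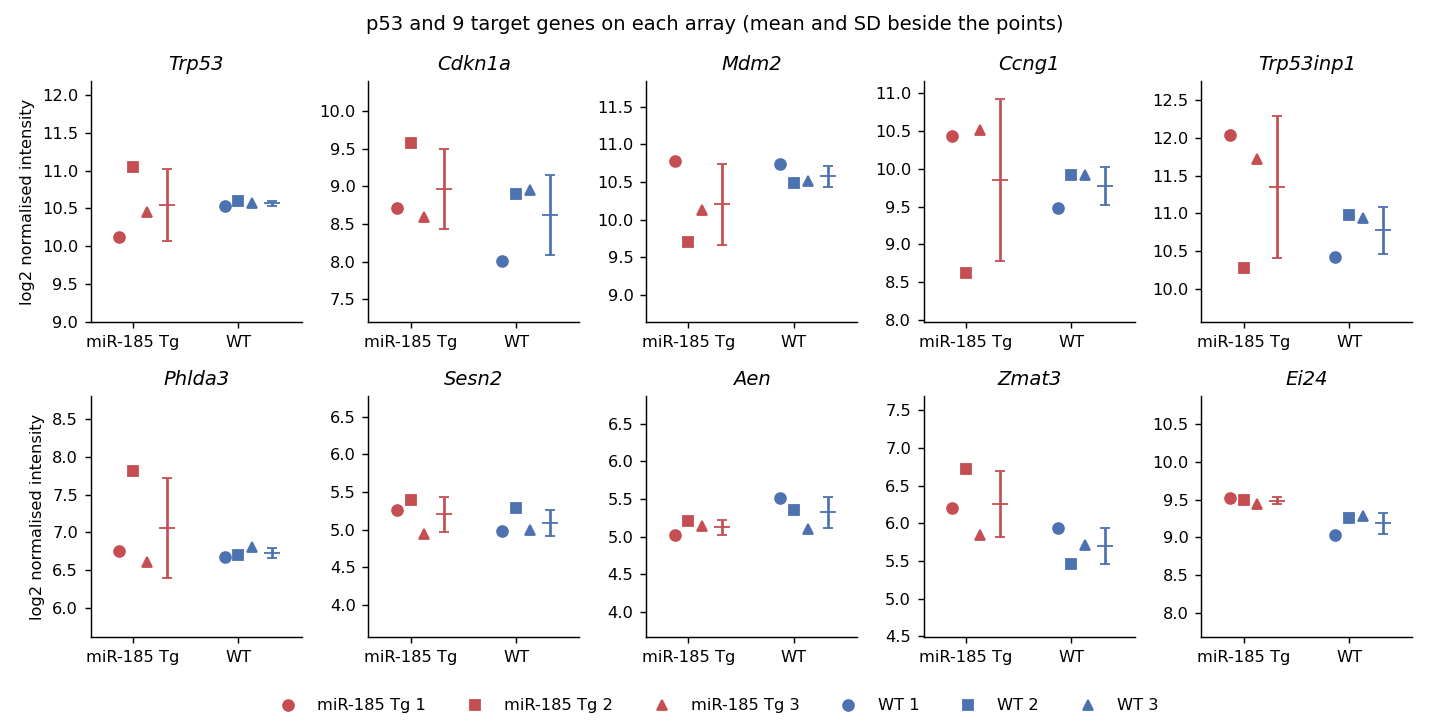
Normalised log2 intensity (vertical axis, of the same span in every panel but with its own centre) of Trp53 and 9 p53 targets on each of the 3 miR-185 Tg arrays (left, red) and 3 WT arrays (right, blue), with the group mean and SD beside the points. The groups overlap in every panel but that of Ei24, and Tg 2 (red square) is the highest array for 5 genes and the lowest for 3.

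Trp53 transcript itself lay at the same mean in both groups. Its normalised log2 intensity was 10.12, 11.06 and 10.46 in Tg 1, 2 and 3, and 10.53, 10.60 and 10.58 in WT 1, 2 and 3. The WT arrays lay close together between the highest and the lowest Tg array. The log2 fold change was -0.024 ± 0.24 (SE; limma, adjusted p = 0.97), with a 95% interval of -0.58 to 0.53. A second detected probe gave 6.04, 6.32 and 6.69 in Tg samples and 6.45, 6.25 and 6.32 in WT samples, a difference of 0.011. On that probe Tg 3 was highest and not Tg 2, so the probes share the flat mean and not the order of the Tg arrays. The remaining Trp53 probe was detected on 0 arrays. The transcript is one part of p53 control, since p53 activity is set largely at the protein level, which arrays do not measure.

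The cell cycle inhibitor p21 is encoded by Cdkn1a, the target used most often to read p53 activity. Cdkn1a had 8.71, 9.58 and 8.60 in Tg 1, 2 and 3, and 8.01, 8.90 and 8.95 in WT 1, 2 and 3. The highest value was Tg 2 and the lowest WT 1, while among the other 4 arrays, which spanned 0.35, both WT arrays lay above both Tg arrays. The log2 fold change was 0.34 ± 0.36 (SE; limma, adjusted p = 0.65; 95% interval -0.48 to 1.17). Both further probes of Cdkn1a were positive too, with differences of 0.33 and 0.17, and both were lowest in WT 1. Without Tg 2 the log2 fold change of Cdkn1a was 0.035.

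Mdm2 and Ccng1 act back on p53. Mdm2, which marks p53 for degradation, had 10.77, 9.71 and 10.13 in Tg 1, 2 and 3, and 10.74, 10.48 and 10.51 in WT 1, 2 and 3. Tg 1 was the highest array and Tg 2 the lowest, so the Tg arrays enclosed the WT arrays. Its log2 fold change was -0.37 ± 0.27 (SE; limma, adjusted p = 0.50; 95% interval -0.99 to 0.25), and the second detected probe differed by -0.32 with the same order of the Tg arrays. Mdm2 and Aen were the 2 targets with a lower mean in Tg samples, and neither passed.

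Ccng1 encodes cyclin G1, which brings a phosphatase to Mdm2. At its brightest probe it had 10.43, 8.61 and 10.51 in Tg 1, 2 and 3, and 9.48, 9.92 and 9.92 in WT 1, 2 and 3. Tg 1 and Tg 3 lay above every WT array and Tg 2 lay below every one. The log2 fold change was 0.082 ± 0.48 (SE; limma, adjusted p = 0.95), and the 95% interval of -1.02 to 1.19 shows how little these arrays fix it.

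The other Ccng1 probes placed Tg 2 on the opposite side. The second probe had 8.43, 8.76 and 8.77 in Tg 1, 2 and 3, and 7.80, 8.35 and 8.30 in WT 1, 2 and 3. The dimmest had 7.30, 8.01 and 7.79 in Tg samples and 6.87, 7.24 and 7.20 in WT samples. On both, all 3 Tg arrays lay above all 3 WT arrays, with differences of 0.51 ± 0.24 and 0.60 ± 0.27 (SE), which did not pass when each probe was tested on its own (unadjusted p = 0.068 and 0.055, limma). Of the 19 detected member probes, 4 had groups that did not overlap, the pair of Ccng1 probes and both Ei24 probes, against 27.0% of all kept probes. Where in the transcript each probe binds was not analysed here.

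**Figure D2:**
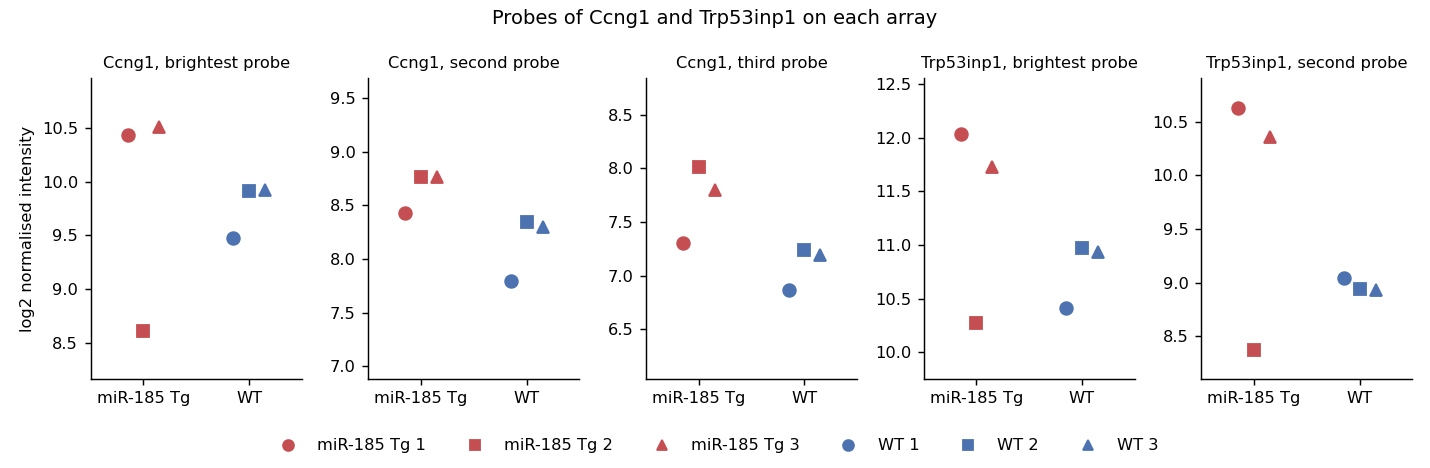
Normalised log2 intensity (vertical axis, of the same span in every panel) on the 3 miR-185 Tg arrays (left, red) and 3 WT arrays (right, blue) for the 3 detected probes of Ccng1 and both detected probes of Trp53inp1. Tg 2 (red square) is the lowest array on the brightest Ccng1 probe at 8.61 and on both Trp53inp1 probes, but above every WT array on the other Ccng1 probes.

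Among targets tied to stress and cell death, Trp53inp1 had the largest fold change of the 10 genes. It encodes a nuclear stress protein that acts with p53 and in autophagy. Trp53inp1 had 12.04, 10.27 and 11.72 in Tg 1, 2 and 3, and 10.41, 10.97 and 10.93 in WT 1, 2 and 3. Tg 1 and Tg 3 lay above every WT array and Tg 2 below every one, as for the brightest Ccng1 probe. The log2 fold change was 0.57 ± 0.43 (SE; limma, adjusted p = 0.52; 95% interval -0.42 to 1.56). The second probe gave 10.63, 8.38 and 10.35 in Tg samples and 9.04, 8.94 and 8.93 in WT samples, again with Tg 2 alone below the WT arrays.

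Aen, an apoptosis-enhancing nuclease, and Phlda3, which competes with the kinase Akt for membrane lipids, did not follow Trp53inp1. Phlda3 had 6.76, 7.82 and 6.61 in Tg 1, 2 and 3, and 6.68, 6.70 and 6.80 in WT 1, 2 and 3. Tg 2 alone lay above the WT arrays, and the other Tg arrays lay at most 0.12 off the WT mean. Its log2 fold change was 0.33 ± 0.34 (SE; limma, adjusted p = 0.64), and it was -0.047 without Tg 2. Aen had 5.02, 5.21 and 5.14 in Tg samples and 5.51, 5.35 and 5.10 in WT samples, a log2 fold change of -0.20 ± 0.17 (SE; limma, adjusted p = 0.57). These Aen values lie near the lowest detected signal of the arrays, 4.62 to 4.70, where the scale understates differences.

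Zmat3, Ei24 and Sesn2 make up the rest. Zmat3, a zinc finger protein that binds RNA, had 6.21, 6.72 and 5.85 in Tg 1, 2 and 3, and 5.93, 5.46 and 5.71 in WT 1, 2 and 3. Tg 1 and Tg 2 lay above every WT array and Tg 3 fell among them. Its log2 fold change was 0.56 ± 0.27 (SE), and its p was the smallest among the members (limma over all genes, unadjusted p = 0.073, adjusted p = 0.31).

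Ei24, an endoplasmic reticulum membrane protein with a role in autophagy, had 9.52, 9.50 and 9.44 in Tg 1, 2 and 3, and 9.03, 9.25 and 9.28 in WT 1, 2 and 3. All Tg arrays lay above all WT arrays and spanned only 0.088. The log2 fold change was 0.30 ± 0.18 (SE; limma, adjusted p = 0.41; 95% interval -0.11 to 0.71), and the second Ei24 probe gave the same difference, 0.30, also without overlap. Sesn2, a stress protein that restrains the growth kinase complex mTORC1, had 5.27, 5.40 and 4.95 in Tg samples and 4.99, 5.29 and 5.001 in WT samples. Its groups overlapped, with a log2 fold change of 0.11 ± 0.18 (SE; limma, adjusted p = 0.79).

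The error between beads is given on the raw scale and the spread between arrays on the background-corrected log2 scale. They were not converted to one scale, which matters most for dim members such as Aen and Sesn2. The SE over the beads of a member's probe was 1.85% to 5.52% of its raw intensity, with a median of 3.12%. The SD between arrays had a median of 0.50 log2 units over the 10 genes in Tg samples and of 0.19 in WT samples, against 0.33 and 0.15 over all genes. The Tg SD was the larger one for 8 of the 10 genes, and for 81.1% of all genes, so the wider Tg spread is not particular to the p53 genes. With 3 samples a group, the smallest p of an exact permutation test, taken two-sided, is 0.1.

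Whether the targets moved together was read array by array, as the distance of each array from the WT mean of each gene. In Tg 1, 8 of the 9 targets lay above the WT mean, with a median of 0.20. In Tg 2, 5 lay above and 4 below, with a median of 0.31, and in Tg 3, 4 lay above and 5 below, with a median of -0.02. Each gene was taken at its brightest probe, the only detected Ccng1 probe that lay below its WT mean in Tg 2. Over all genes the medians of Tg 1, 2 and 3 were 0.0054, 0.012 and 0.0091, with 50.5% to 50.9% of genes above the WT mean. The 3 Tg arrays thus did not share one direction for the targets.

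The targets split most in Tg 2. Cdkn1a, Phlda3 and Zmat3 lay 0.96, 1.09 and 1.02 log2 units above the WT mean there. Mdm2, Ccng1 and Trp53inp1 had distances of -0.87, -1.16 and -0.50 on the same array. For Ccng1 this holds at its brightest probe only, since its other probes had Tg 2 above every WT array, at 8.76 and 8.01. In Tg 1 and Tg 3 it was Trp53inp1 and Ccng1 that stood out, at 1.26 and 0.66 in Tg 1 and at 0.95 and 0.74 in Tg 3. Of the 9 targets, 3 kept one sign in all 3 Tg arrays. Ei24 lay above the WT mean at 0.34, 0.31 and 0.25 and Zmat3 at 0.51, 1.02 and 0.15, while Aen lay below it.

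**Figure D3:**
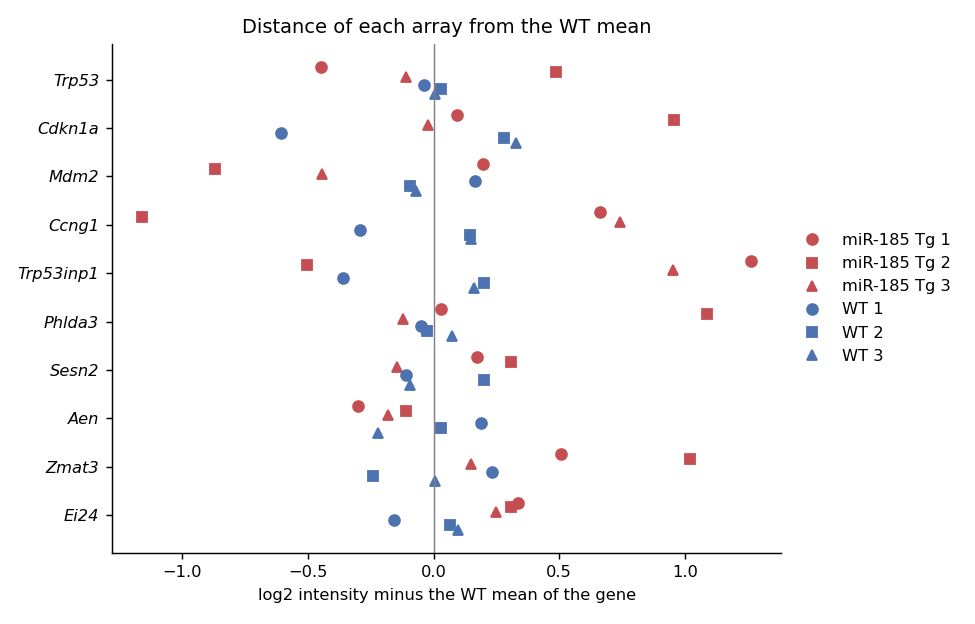
Log2 intensity minus the WT mean of the gene (horizontal axis) for the 3 miR-185 Tg arrays (red, upper row of each gene) and the 3 WT arrays (blue, lower row). Tg 2 (red squares) lies near 1 for Cdkn1a, Phlda3 and Zmat3 and below -0.5 for Mdm2, Ccng1 and Trp53inp1, while Ei24 is 0.25 to 0.34 in every Tg array. Each gene is shown at its brightest probe, and the other Ccng1 probes had Tg 2 above the WT arrays.

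Leaving out Tg 2 changed which members passed. Without it, Trp53inp1 rose by 1.11 ± 0.20 and Ccng1 by 0.70 ± 0.17 on the log2 scale in Tg cells (SE; limma, adjusted p = 0.017 and 0.039), with groups that did not overlap. The Ccng1 value is that of its brightest probe, the only detected one on which Tg 2 lay below the WT arrays. The 2 of 10 genes that passed stand beside 13.8% of all genes, 1711 of 12426, that passed in the same fit, so more calls were made everywhere. The median of the 9 targets was then 0.035 with 6 of 9 positive, lower than with all arrays. Trp53 had a log2 fold change of -0.28 ± 0.14 without Tg 2 and Ei24 of 0.29 ± 0.14 (SE; limma, adjusted p = 0.22 for each). Their groups did not overlap either, and the share of all genes without overlap on these arrays is not given here. Whichever of the other 5 arrays was left out, 0 of the 10 genes passed. Over all 12426 genes, 49 passed without Tg 1 and 657 without Tg 3. Without WT 1, WT 2 and WT 3 the counts were 1, 47 and 2, so in most of these fits few genes of any kind passed. Over the 6 fits with 1 array left out, the log2 fold change of Mdm2 lay between -0.66, without Tg 1, and -0.12, without Tg 2. Zmat3 lay between 0.33 and 0.76, Aen between -0.31 and -0.10, and Sesn2 between 0.014 and 0.24.

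**Figure D4:**
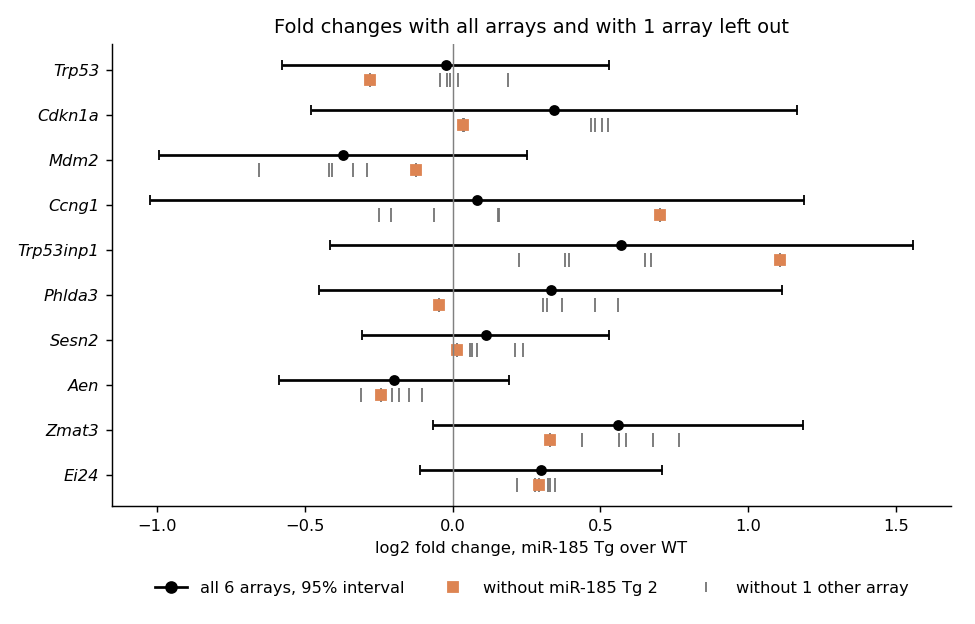
Log2 fold change of miR-185 Tg over WT (horizontal axis) for each gene with all 6 arrays (black, with its 95% interval), without miR-185 Tg 2 (orange square) and without each of the other arrays (grey ticks). Leaving out Tg 2 moves Ccng1 to 0.70 and Trp53inp1 to 1.11 and brings Cdkn1a and Phlda3 to 0.035 and -0.047, while Ei24 stays between 0.22 and 0.35. Each gene is shown at its brightest probe.

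Further p53 targets, from a list of 32 genes without BCL2 family members, likewise held no gene that passed. Of these, 27 were tested, and 16 had a positive and 11 a negative log2 fold change. The count that passed was 0 of 27, beside 4.23% of all genes (limma), a share at which few of 27 would pass. An unadjusted p under 0.05 was reached by 3 of the 27, all higher in Tg samples, beside 20.0% of all genes in either direction. Their median was 0.034. Btg2, Tigar, Perp, Dram1 and Gdf15 were detected on 0 arrays and were not tested.

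The 4 genes of that list with the smallest p were Dcxr, Tnfrsf18, Fas and Apaf1. Dcxr, a carbonyl reductase gene, had 7.45, 8.06 and 7.27 in Tg samples and 6.55, 7.03 and 6.45 in WT samples, without overlap and with a log2 fold change of 0.92 (limma, adjusted p = 0.13). Tnfrsf18, which encodes GITR, a costimulatory receptor of T cells, had 8.54, 8.50 and 8.49 in Tg samples and 7.54, 8.07 and 8.03 in WT samples, also without overlap, with 0.63 (limma, adjusted p = 0.17). Fas, the death receptor, had a log2 fold change of 0.59 and Apaf1, the scaffold of the apoptosome, of -0.86 (limma, adjusted p = 0.22 and 0.28). Apaf1 was lowest in Tg 2, at 8.19 against 9.96 to 10.01 in WT samples.

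Of the 4 BCL2 family targets, 0 passed (4.23% of all genes), 2 had an unadjusted p under 0.05 (20.0% of all genes) and 3 did not overlap between groups (28.2% of all genes). At its brightest probe Bbc3, which encodes the killer protein PUMA, lay higher in every Tg sample than in any WT sample. Its log2 fold change was 1.12 ± 0.31 (SE; limma, adjusted p = 0.089). The brightest probe of Pmaip1, which encodes the killer protein NOXA, was detected on 3 Tg and 0 WT arrays. Tg samples alone thus kept Pmaip1 in the test, and both counts above include it. Its log2 fold change was 0.77 ± 0.20 (SE; limma, adjusted p = 0.077). With no WT signal detected, the difference is read only as a bound, at least 1.62-fold. The dimmer probes of Bbc3 and Pmaip1 differed less: the 2 further detected Bbc3 probes by 0.23 and 0.18 and that of Pmaip1 by 0.27, each with groups that overlapped. Bax, with 0.035, and Bid, with -0.38 on the log2 scale, did not pass (limma, adjusted p = 0.97 and 0.33). The BCL2 targets thus also lay on both sides of 0.

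Genes that regulate p53 were mostly lower in mean in Tg samples. The list also holds relatives of p53 and Rps27l, which p53 induces. For Atm and Atr, both on it, the lower mean came from Tg 2. Tg 1 and Tg 3 lay above the WT mean, which was 10.03 for Atm and 7.78 for Atr. Of 11 tested, 8 were negative, with a median of -0.25, and 1 passed (limma, against 4.23% of all genes). That gene was Chek1, the kinase that slows the cell cycle when replication stalls, with 5.58, 5.07 and 6.02 in Tg 1, 2 and 3, and 7.16, 7.04 and 6.97 in WT 1, 2 and 3. Every Tg value lay at least 0.95 below every WT value, and Chek1 fell by 1.501 ± 0.27 on the log2 scale (SE; limma, adjusted p = 0.028). The call was lost without Tg 1, WT 1, WT 2 or WT 3 (limma, adjusted p = 0.098, 0.13, 0.13 and 0.14), with log2 fold changes of -1.51, -1.45, -1.51 and -1.54.

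Chek2, the kinase activated by double-strand breaks, and Usp7, which removes ubiquitin from Mdm2 and p53, were lower without overlap at their brightest probes, with log2 fold changes of -0.44 and -0.25 (limma, adjusted p = 0.29 and 0.46). Chek2 was also lower without overlap at a second probe, with a difference of -0.49, but not at its dimmest, and both further Usp7 probes overlapped between groups. Mdm4, the partner of Mdm2 in restraining p53, had 4.75, 4.29 and 5.87 in Tg samples and 6.09, 5.48 and 5.85 in WT samples, with groups that overlapped and a log2 fold change of -0.84 (limma, adjusted p = 0.28). Its other detected probes differed by -0.22 and -0.27. Cdkn2a, whose Arf product blocks Mdm2, and the p53 relatives Trp63 and Trp73 were detected on at most 1 array and were not tested.

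Genes that p53 and p21 switch off through the DREAM repressor complex were lower in mean, with 8 of 9 negative and a median of -0.31. Mcm5, part of the replicative helicase, was the 1 that passed (limma, against 4.23% of all genes). It had 11.68, 11.59 and 11.71 in Tg samples and 12.97, 12.82 and 12.79 in WT samples, and fell by 1.20 ± 0.12 on the log2 scale (SE; limma, adjusted p = 0.0062). Without WT 1 or WT 3 its adjusted p was 0.051 and 0.052 in limma, with log2 fold changes of -1.15 and -1.24. Ccnb1, a mitotic cyclin gene, did not overlap between groups either and had a log2 fold change of -0.89 (limma, adjusted p = 0.050, just above the threshold). Its second probe also differed by -0.89 without overlap. That probe passed when each probe was tested on its own (limma, adjusted p = 0.047), as did 614 of 18597 kept probes. Cdc20 and Aurkb, both of mitosis, had -0.21 and -0.31 and did not pass. Cdc20 did not overlap between groups at its brightest probe, but its further detected probes did, with differences of -0.034, -0.055 and -0.92. Genes of this kind are also known to follow the rate of cell division, which was not measured here.

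**Figure D5:**
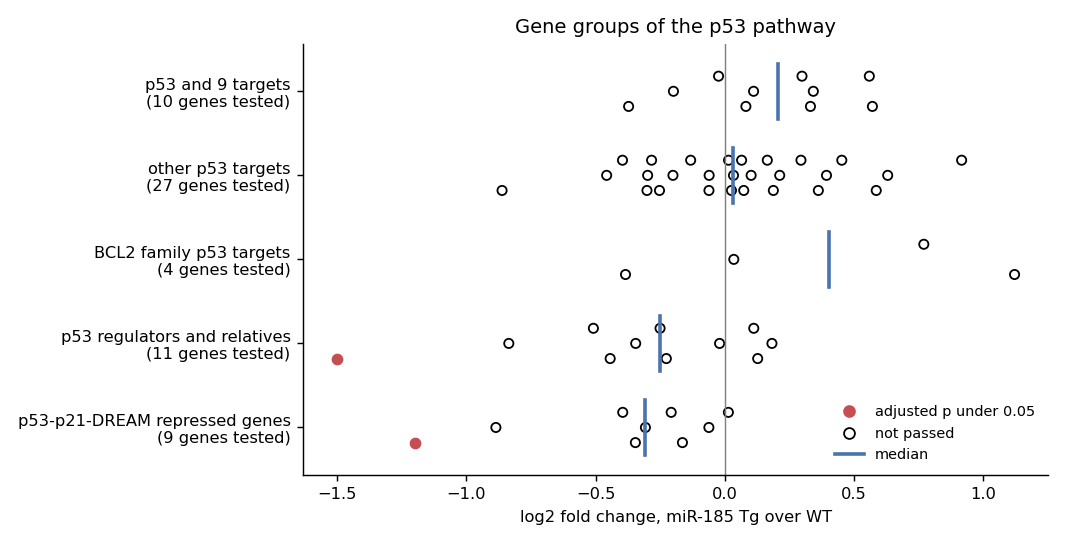
Log2 fold change of miR-185 Tg over WT (horizontal axis) of each tested gene in 5 groups of the p53 pathway, with filled red points for genes with an adjusted p under 0.05 and a blue bar at the group's median. The medians are 0.21 for p53 with its 9 targets, 0.034 for further targets, 0.40 for BCL2 family targets, -0.25 for regulators and -0.31 for DREAM genes, and the filled points are Chek1 and Mcm5. The BCL2 family median is over 4 genes and includes Pmaip1, which was detected on 0 WT arrays and kept in the test by Tg samples alone. That median is therefore not to be ranked against the others.

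The genes whose levels over the 6 arrays were most like those of Trp53 were Mad2l1bp, Cry2, Atp8b2 and Ivd, with Pearson r of 0.997, 0.988, 0.987 and 0.987. For Cdkn1a they were Cd24a, Wdr70, Rhof and Fes, with r of 0.985, 0.975, 0.974 and 0.970. These are the highest of 12426 genes over 6 points, of which WT 2 and WT 3 are nearly the same and Tg 2 stands apart, so they are descriptions. None of these 8 genes passed the test between groups (limma, 0 of 8, where 4.23% of all genes did). They were picked for likeness to Trp53 and Cdkn1a, which did not pass, so that count carries no information of its own. None of the 8 is on the lists of p53 genes used here.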

How the data were processed

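Per the file headers, GenomeStudio 1.9.0 wrote the deposited probe table without normalization: the mean bead intensity of each probe, its bead SD, the count of beads, and a detection score, a fraction from which the detection p-value was taken by subtraction out of 1. The sources used here do not say whether background was subtracted. The authors' series values were found to be the log2 of the deposited gene-averaged intensity, uncentred and unscaled, and serve as an alternative.

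Intensities were normexp-corrected from the detection p-values (offset 16), quantile normalised and log2-transformed, as neqc does (limma 3.58.1, R 4.3.3). A probe was kept if 3 or more arrays had a detection p under 0.05 (18597 probes). Each gene was represented by its brightest probe, and lmFit with eBayes (trend) was run on 12426 genes, with Benjamini-Hochberg adjustment over all of them. Folds are understated for dim genes. Names follow GRCm38.p6 RefSeq symbols or unique synonyms, for 21817 of 30774 table names. The fit was checked on simulated data.

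Members, lists, markers and tests were chosen with earlier results of these data known. Named genes were all members and BCL2 targets, the 4 smallest p of each further list with any called, and the 4 genes most like Trp53 and Cdkn1a. Mthfd1, Gtse1 and Rps27l, named for their promoter sites, and Atm and Atr were added after values were seen. Alternatives covered background, offset, scaling, filter, probe rule, variance model, array weights, a replicate block and each array left out.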

Additional observations from a re-analysis of the deposited data

How the results depend on the processing

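Over 19 alternatives, 170 of 187 values of single members kept their sign and did not pass, 6 kept it and passed, and 11 changed sign. The number of members passing was 0 in all but 2 alternatives: it was 4 with array weights, and over the fits with 1 array left out it ran from 0 to 2, with 2 when Tg 2 was left out. Array weights gave Tg 2 a weight of 0.121 and WT 3 one of 5.37. With them Trp53, Ccng1, Trp53inp1 and Zmat3 passed with log2 fold changes of -0.39, 0.49, 1.04 and 0.54, Cdkn1a and Mdm2 turned to -0.13 and 0.16, 4471 genes passed in all, and the median of the 9 targets was 0.16. With 1 array left out that median ran from 0.035, without Tg 2, to 0.35, and it was 0.057 without WT 1. Trp53 was at 0.028 with median scaling, 0.022 with cyclic loess and 0.011 at its second probe, and ran from -0.28 to 0.19 with 1 array left out. Ccng1 then ran from -0.25 to 0.70 and Phlda3 from -0.047 to 0.56. Over all genes 526 passed, against 310 with median scaling, 308 with the authors' series values, 312 with no filter and 36 with WT 2 and WT 3 averaged. With 1 array left out the count ran from 1 to 1711. The cause of these shifts was not tested. The median of the further targets ran from -0.013 to 0.072 over the alternatives, close to 0 in each. With a replicate block 264 genes passed, and 0 members; same-numbered samples had deviations that correlated at -0.25, 0.11 and -0.22, so the numbers were not taken to pair the samples. Aen and Sesn2 lay near the lowest detected signal, which limits what their values can show.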

Other observations

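Atm and Atr, kinases that signal DNA damage to p53, were lowest in Tg 2 and were named after their values were seen. Atm, the kinase activated by double-strand breaks, had 10.82, 7.59 and 10.15 in Tg 1, 2 and 3, and 9.86, 10.06 and 10.16 in WT 1, 2 and 3. Atr, the kinase activated at stalled replication forks, had 8.13, 6.18 and 8.34 in Tg samples and 8.16, 7.54 and 7.64 in WT samples. In both, Tg 2 lay more than 1 log2 unit below every other array, and the groups overlapped. Their log2 fold changes were -0.51 ± 0.72 for Atm and -0.23 ± 0.54 for Atr (SE), and neither passed (limma, adjusted p = 0.75 and 0.87).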
